A study of Mus musculus with 11 samples.

Results

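Transcripts of 7 sodium channel accessory genes were examined in mouse hippocampus after deletion of the Scn1a 1b regulatory interval. They were chosen by name: Scn2b, Scn3b and Scn4b, which encode beta subunits of the voltage-gated sodium channel, and Fgf11, Fgf12, Fgf13 and Fgf14, which encode the fibroblast growth factor homologous factors (FHFs). The gene count tables held 24391 genes in one sequencing round and 24015 in the other, with 23645 in both, and all 7 were present and passed the expression filter in each. A further gene of the beta subunit family is not described here.

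The 11 libraries were made from hippocampus dissected from one hemisphere of C57BL/6N mice, aged P32 by the study's methods and given as adult in the labels. In the heterozygous round, 4 libraries from mice lacking 1b on one chromosome (1b+/-, labelled HT) were set against 3 WT libraries. In the homozygous round, 2 libraries from mice lacking 1b on both chromosomes (1b-/-, labelled KO) were set against 2 WT libraries. The deletion was made by Cas9 in the germ line, so every cell of a mutant mouse carries it, and all mutants descend from a single line bred to WT. Mice of both sexes were used without balance: the heterozygous round held 1 female, a 1b+/- mouse, and in the homozygous round both WT mice and one 1b-/- mouse were female. Reads were single-end in the homozygous round and paired-end in the heterozygous round, so genotypes were compared within a round, and nothing in the labels goes beyond separate samples of one genotype, so p-values measure the spread between these samples only. In bulk tissue, fewer cells of a type and less RNA per cell cannot be told apart.

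A sodium channel is formed by one large alpha subunit, which holds the pore, together with smaller proteins that tune it. Beta subunits cross the membrane once, carry an immunoglobulin-like fold outside the cell, and alter gating, surface delivery and cell adhesion. FHFs resemble secreted fibroblast growth factors but stay inside the cell, where they bind the cytoplasmic tail of the alpha subunit and shift inactivation, largely at the axon initial segment where action potentials begin.

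The FHF genes are close relatives, so it matters whether reads can be assigned to one of them. In an alignment of their longest annotated coding sequences (mm9, GENCODE vM1), 40.9% of the gap-free columns held the same base in all 4 genes. The stretch of 60 coding bases that is most alike in all 4 genes at once is shown here to let the family's bases be compared side by side. It lies in exon 4 of 5 in each transcript, and capitals mark the 37 positions at which all 4 genes carry the same base:
Fgf11, chr11:69612085-69612144, minus strand: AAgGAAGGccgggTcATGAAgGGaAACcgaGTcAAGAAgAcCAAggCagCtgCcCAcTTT
Fgf12, chr16:28189539-28189598, minus strand: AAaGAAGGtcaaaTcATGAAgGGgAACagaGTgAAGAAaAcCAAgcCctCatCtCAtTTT
Fgf13, chrX:56320597-56320656, minus strand: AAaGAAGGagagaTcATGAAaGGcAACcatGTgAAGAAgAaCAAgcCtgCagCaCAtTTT
Fgf14, chr14:124383010-124383069, minus strand: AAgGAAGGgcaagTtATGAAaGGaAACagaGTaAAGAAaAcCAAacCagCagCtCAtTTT

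In this stretch the pairs of genes differed at 11 (Fgf12 and Fgf14) to 16 positions. Single pairs came closer elsewhere: over the whole coding sequences, the closest 50-base windows from different FHF genes differed at 5 bases (Fgf12 and Fgf14), 7 (Fgf11 and Fgf12) and 9 or 10 for the other pairs, and the longest exact run shared by any pair was 15 bases. For the 3 beta subunit genes the closest 50-base windows differed at 19 to 23 bases. Stretches of that length, the read length of the homozygous round, therefore had no identical match between the longest annotated coding sequences of members of the same family. Other annotated transcripts and untranslated regions were not compared. Scn2b (chr9:44925959-44938153, plus strand) lies within the span of Gm10684 (chr9:44915259-44943689) on the opposite strand. The exons of Gm10684 were not compared, and the strand setting of the counting is not given in the sources used here. Whether reads of the pair can be told apart is therefore not known. Scn4b (chr9:44946520-44962235, plus strand) begins 8366 bases beyond the end of Scn2b, and Scn3b lies elsewhere on the same chromosome (chr9:40076801-40099203, plus strand). Fgf11 (chr11:69609570-69615359) is compact, whereas Fgf12 (chr16:28160206-28445313), Fgf13 (chrX:56315322-56821248) and Fgf14 (chr14:124377129-125076349), all on the minus strand, have long introns.

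Libraries held 20667122 to 36145161 counts. Scn1a, the gene whose 1b region was deleted, was lowest in both 1b-/- libraries at 25.9 and 16.2 CPM (read counts scaled to a common library size over all 11 libraries), against 131 and 170 CPM in the WT libraries of the same round. It fell by 2.83 on the log2 scale in 1b-/- (SE 0.27, edgeR quasi-likelihood adjusted p = 0.0211). Without WT library 1 it was at -3.0002, and without WT library 2 at -2.64, each fit holding 1 WT library. In 1b+/-, Scn1a ranged from 85.6 to 122 CPM and WT from 116 to 175 CPM, a log2 difference of -0.47 (SE 0.15) with an edgeR adjusted p of 0.303. One pair of libraries stood apart from the rest. Summed over 14 genes marking the striatum, a forebrain region outside the hippocampus, expression reached 8792 and 3647 CPM in WT libraries 1 and 2 of the homozygous round but 271 to 507 CPM in the other 9. Drd1a and Tac1, both striatal neuron genes, were among 11 of the 14 that passed the test as lower in 1b-/- than in those WT libraries. Of all genes, 3.58% passed in either direction. All 14 were lower with no overlap, where 59.7% of all genes had no overlap. Summed markers of basal forebrain cholinergic neurons were 43.5 and 102 CPM there and 1.76 to 11.7 CPM elsewhere. The summed level of 6 dentate granule cell genes, which mark a defining hippocampal cell type, ran the other way, at 151 and 156 CPM there and 291 to 354 CPM elsewhere, with C1ql2 at 1.75 to 1.82 CPM there and at 34.7 CPM or more in every other library, and Prox1 at 14.7 to 15.1 CPM against 42.6 CPM or more. Of these 6 genes 5 lay below every other library in that WT pair, where 28.2% of all genes lay outside the other 9 libraries on either side. Calb1, named after its values were seen, did not, at 129 to 138 CPM against 84.0 to 181 CPM elsewhere. All differences of the homozygous round rest on this WT pair.

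The beta subunit transcripts were far apart in how they behaved. Scn2b encodes a beta subunit joined to the alpha subunit by a disulfide bond. It read 371, 341 and 363 CPM in WT and 371, 344, 366 and 377 CPM in 1b+/- of the heterozygous round. In the homozygous round it read 350 and 301 CPM in WT and 314 and 255 CPM in 1b-/-. The groups overlapped in both rounds. The log2 difference was 0.03 (SE 0.04) in 1b+/- and -0.19 (SE 0.16) in 1b-/-, with edgeR adjusted p of 0.868 and 0.501.

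Scn3b encodes a beta subunit that associates with the channel without a disulfide bond. Its CPM were 226, 292 and 241 in WT and 282, 270, 267 and 223 in 1b+/-, with both groups spread over the same range. In the homozygous round Scn3b was 143 and 131 CPM in WT and 302 and 270 CPM in 1b-/-, with no overlap. It rose 2.10-fold in 1b-/- (log2 fold change 1.07, SE 0.13, edgeR adjusted p = 0.0283). On the scale of all 11 libraries, however, it was the WT pair of the homozygous round that lay below every other library, and the 1b-/- values overlapped those of the heterozygous round. Scn3b was at 1.14 without WT library 1 and at 1.01 without WT library 2. Each of these fits held 1 WT library, so neither can decide whether the call holds. Summed striatal markers moved the opposite way, from 8792 and 3647 CPM in the WT pair to 320 and 371 CPM in 1b-/-, and their part was not tested.

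Scn4b encodes the beta subunit whose cytoplasmic tail can block open channels and so permit resurgent current, and it is known for high expression in striatal neurons. It read 42.2, 38.5 and 16.3 CPM in WT and 31.1, 22.3, 25.6 and 36.6 CPM in 1b+/-. In the homozygous round it read 1208 and 542 CPM in WT and 28.4 and 11.7 CPM in 1b-/-. Scn4b thus fell 43.5-fold between WT and 1b-/- (log2 fold change -5.44, SE 0.64, edgeR adjusted p = 0.0272). The same WT pair again held the extreme values, with a mean 31.2 times the mean of the other 9 libraries, and the 1b-/- libraries overlapped both heterozygous-round groups. Scn4b had the order of the summed striatal markers within the WT pair, and also that of the oligodendrocyte and GABAergic interneuron sums. The part of any of these in the Scn4b difference was not tested. Without WT library 1 Scn4b was at -4.75, and without WT library 2 at -5.91. These fits also held 1 WT library and cannot decide whether the call holds.

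**Figure D1:**
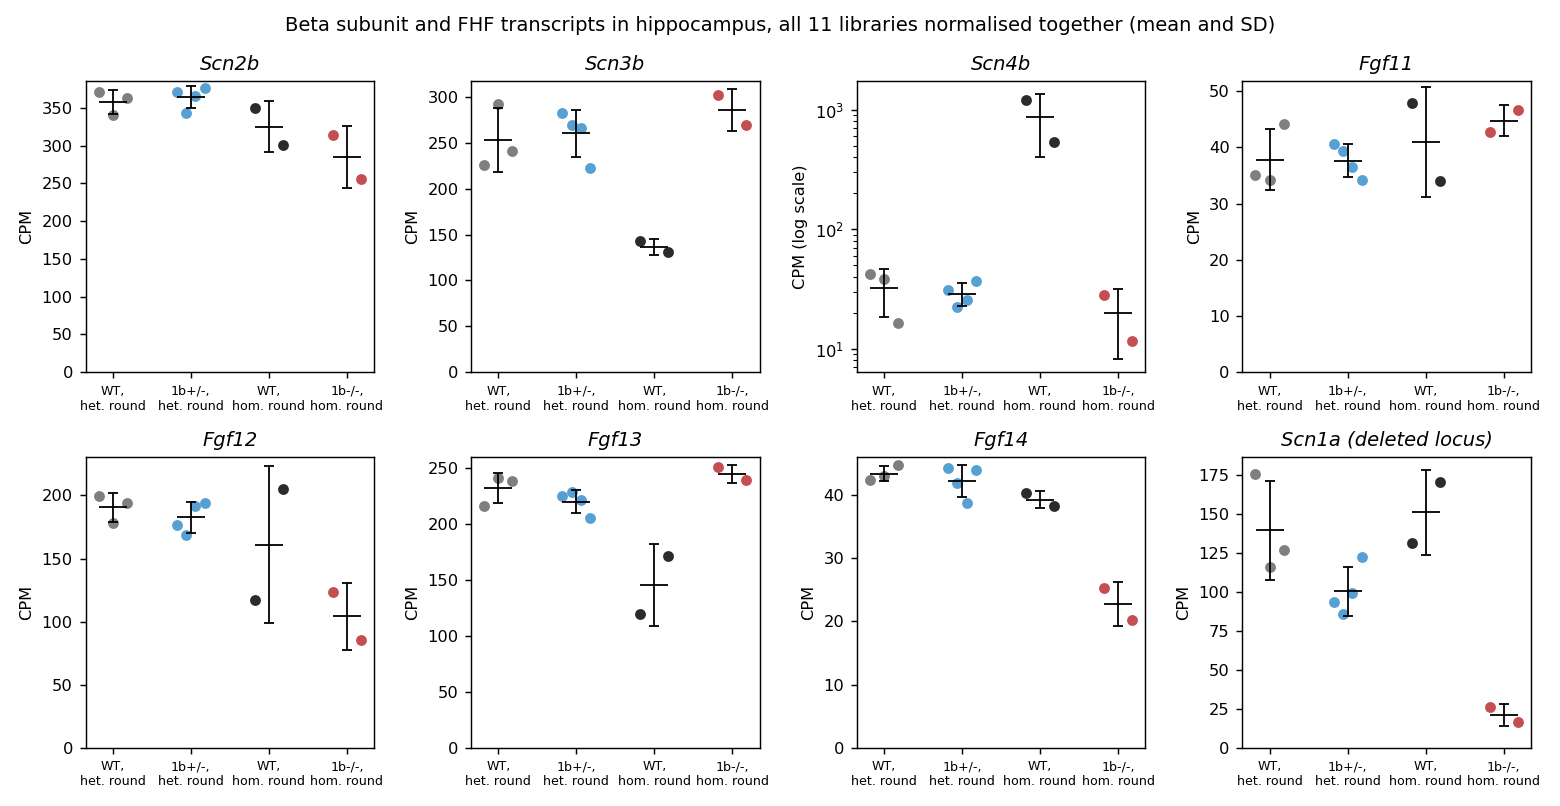
Expression of the 7 members and of Scn1a in each library, as read counts scaled to a common library size over all 11 libraries (CPM). Points are libraries, and black bars give the group mean and SD (n = 3 and 2 WT, 4 1b+/-, 2 1b-/-); the Scn4b axis is logarithmic. Scn4b, Scn3b and Fgf13 show the 2 WT libraries of the homozygous round apart from the other 9, whereas Fgf14 and Scn1a show the 2 1b-/- libraries below the other 9.

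Of the FHFs, Fgf11 had the smallest log2 difference between genotypes in both rounds, though not the smallest spread within groups. It read 35.1, 34.3 and 44.2 CPM in WT and 40.7, 39.3, 36.6 and 34.2 CPM in 1b+/-, then 48.0 and 34.0 CPM in WT and 42.8 and 46.7 CPM in 1b-/-. All 4 groups overlapped. The log2 difference was -0.00 (SE 0.09, edgeR adjusted p = 0.993) in 1b+/- and 0.13 (SE 0.20, edgeR adjusted p = 0.695) in 1b-/-.

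Fgf12 is a main FHF of central neurons, and changes in its human counterpart are a cause of early-onset epilepsy. It read 199.96, 178 and 194 CPM in WT and 176, 169, 192 and 194 CPM in 1b+/-. In the homozygous round the WT libraries differed widely from one another, at 117 and 205 CPM, and 1b-/- read 123 and 85.7 CPM, so that the groups overlapped. The log2 difference in 1b-/- was -0.62 (SE 0.31, edgeR adjusted p = 0.272), and in 1b+/- it was -0.06 (SE 0.06, edgeR adjusted p = 0.755).

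Fgf13, which can also bind microtubules, read 216, 241 and 239 CPM in WT and 225, 228, 222 and 205 CPM in 1b+/-. In the homozygous round it was 119 and 171 CPM in WT and 251 and 239 CPM in 1b-/-, with no overlap. The log2 difference of 0.76 (SE 0.20) in 1b-/- had an unadjusted p of 0.0102 and an edgeR adjusted p of 0.0929, and did not pass. Like Scn3b, Fgf13 was lowest in the WT pair of the homozygous round, below all 9 other libraries.

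Fgf14 is concentrated at the axon initial segment, and loss of one copy of its human counterpart causes an inherited ataxia. It was nearly constant in the heterozygous round, at 42.4, 43.0 and 44.7 CPM in WT and 44.2, 41.9, 38.8 and 44.0 CPM in 1b+/-. The WT libraries of the homozygous round read 40.3 and 38.3 CPM, close to those values, while 1b-/- read 25.2 and 20.3 CPM. The 1b-/- libraries were below all 9 others, which no other member showed. Within the homozygous round the log2 difference was -0.78 (SE 0.15), with an unadjusted p of 0.00313 and an edgeR adjusted p of 0.0604, and did not pass.

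Counted over the members, 0 of 7 passed the edgeR test in 1b+/- against WT, where 0% of the 14630 genes tested passed. None of the 7 reached an unadjusted p below 0.05 there, against 11.3% of all genes, and none had groups without overlap, against 10.9%. Exact two-sided permutation tests over the 35 splits of these 7 libraries gave p of 0.229 to 1.0 for the members, where 0.0286 is the smallest possible. Median size of the difference over all genes was 0.0721 on the log2 scale, and of the members Scn4b (-0.17, SE 0.29) and Fgf13 (-0.08, SE 0.05) lay beyond it. In 1b-/- against WT, 2 of 7 passed, 1 in each direction, against 3.58% of 14838 genes; 4 of 7 had an unadjusted p below 0.05, against 26.4%, and the same number had no overlap, against 59.7%.

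All 11 libraries entered a pair of further models. With a term for the round and a linear effect of each deleted allele, 3 of 7 members passed in edgeR, against 11.1% of 14906 genes: Scn3b rose by 0.38 per allele on the log2 scale (SE 0.09, adjusted p = 0.0258), Scn4b fell by 2.03 (SE 0.51, adjusted p = 0.0326) and Fgf14 fell by 0.29 (SE 0.07, adjusted p = 0.0252). Fgf12 (-0.24, adjusted p = 0.123) and Fgf13 (0.24, adjusted p = 0.0814) did not pass. Leaving out any 1 of the 4 homozygous-round libraries left 0 members past the threshold, with lowest edgeR adjusted p of 0.0637, 0.0775, 0.0722 and 0.0833. An exact permutation of genotype within rounds gave p of 0.105 to 0.705 for the members over 210 arrangements, where 0.00476 is the smallest possible, against 0.0143 for Scn1a. The difference between the 1b-/- and 1b+/- effects passed for 4 members, against 27.3% of genes. It was 1.02 for Scn3b (SE 0.17, edgeR adjusted p = 0.00227), -5.28 for Scn4b (SE 0.69, adjusted p = 6.43e-04), 0.83 for Fgf13 (SE 0.17, adjusted p = 0.00608) and -0.75 for Fgf14 (SE 0.13, adjusted p = 0.00278), all on the log2 scale.

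Because the WT pair of the homozygous round stood apart, the 1b-/- libraries were also set against the 3 WT libraries of the heterozygous round, a choice made after seeing the data that crosses read types. In that edgeR fit 52.1% of genes passed, and 3 of 7 members did: Fgf14 (-0.93, SE 0.09, adjusted p = 2.45e-05), Fgf12 (-0.87, SE 0.21, adjusted p = 0.00541) and Scn2b (-0.33, SE 0.10, adjusted p = 0.0143). Scn3b (0.18, adjusted p = 0.252), Scn4b (-0.69, adjusted p = 0.251) and Fgf13 (0.08, adjusted p = 0.618) did not pass. The WT libraries of the 2 rounds, which share a genotype, differed in 54.4% of genes and in 3 members, Scn4b (log2 difference 4.76, higher in the homozygous round, adjusted p = 2.39e-05), Scn3b (-0.89, adjusted p = 2.01e-04) and Fgf13 (-0.68, adjusted p = 0.00113); for Fgf14 the value was -0.14 (adjusted p = 0.225). Without those WT libraries and without the round term, the effect per allele passed for Fgf14 (-0.42, adjusted p = 0.0248) and Fgf12 (-0.40, adjusted p = 0.0270), where 35.4% of genes passed, and was 0.08 for Scn3b and -0.33 for Scn4b. Round and genotype cannot be told apart in the 1b-/- values across rounds, nor round and sex in the WT values, since the WT mice were male in the heterozygous round and female in the other.

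**Figure D2:**
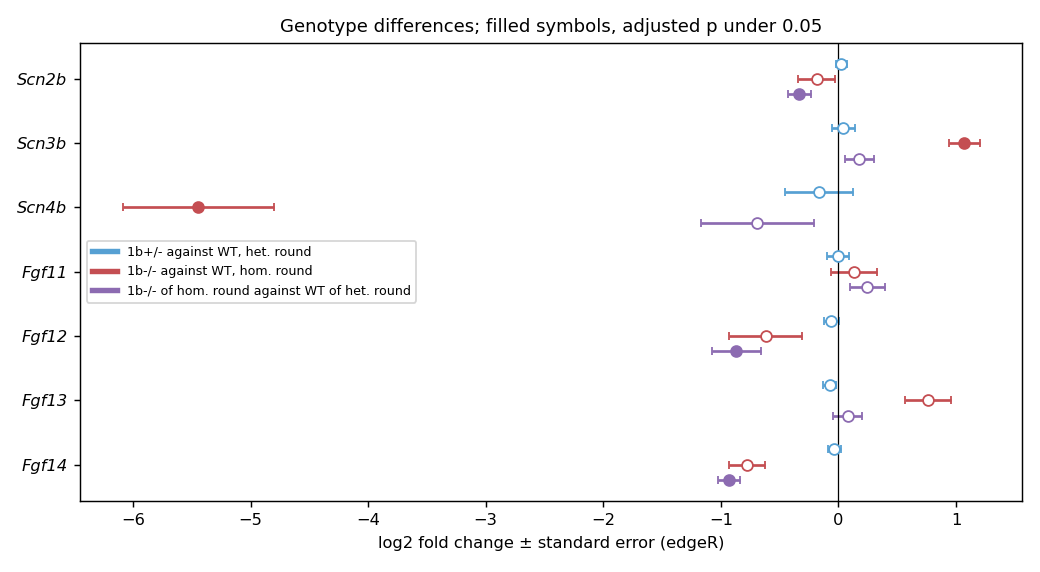
Log2 fold changes of the 7 members with their standard errors from edgeR, for 1b+/- (4 against 3 libraries), 1b-/- (2 against 2) and 1b-/- against the 3 WT libraries of the heterozygous round. Filled symbols passed at an adjusted p under 0.05; the Scn4b value of -5.44 and the Scn3b value of 1.07 shrink to -0.69 and 0.18 with the other WT libraries, while Fgf14 moves from -0.78 to -0.93.

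Set beside all genes, libraries that stand apart are common in these data. The WT pair of the homozygous round lay outside the other 9 libraries for 3 of 7 members and for 28.2% of genes, and the 1b-/- pair did so for 1 of 7 members and for 29.3% of genes. The patterns crossed the protein families: Scn3b and Fgf13, a beta subunit and an FHF, were low in the WT pair, Scn4b was high there, and Fgf14 was low in 1b-/-.

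**Figure D3:**
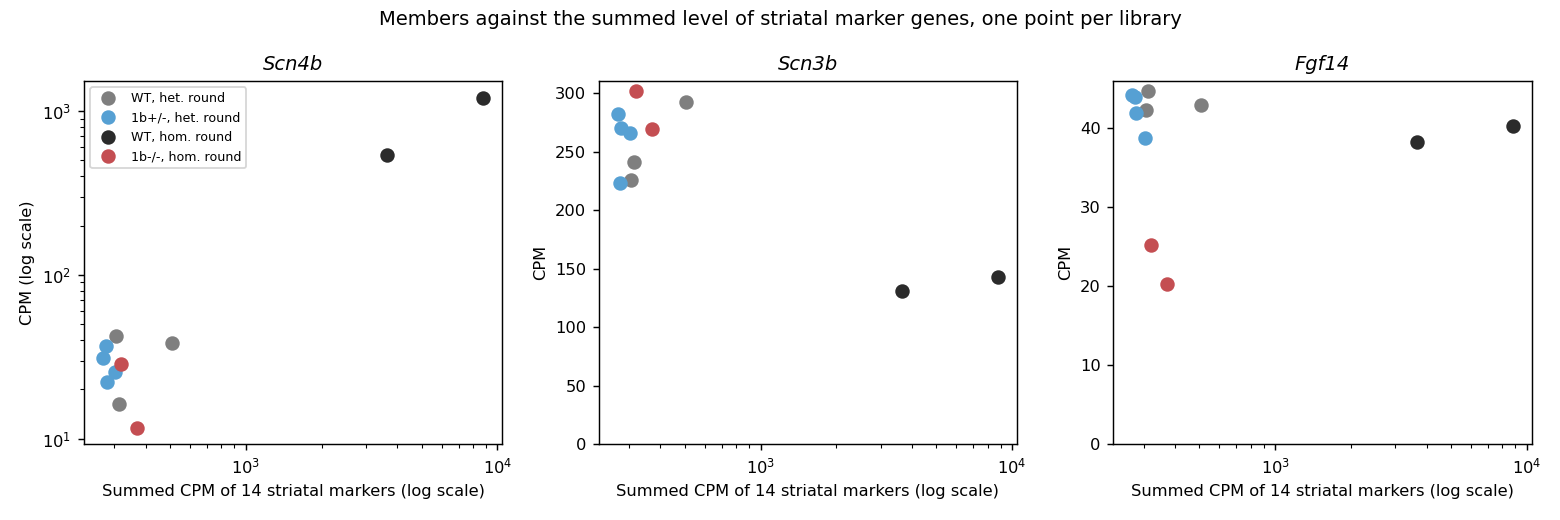
CPM of Scn4b (log axis), Scn3b and Fgf14 against the summed CPM of 14 striatal marker genes (log axis), both normalised over all 11 libraries, with one point per library coloured by group. The 2 WT libraries of the homozygous round lie at 3647 and 8792 summed marker CPM, high for Scn4b and low for Scn3b; Fgf14 there is near the heterozygous-round values, and the 1b-/- libraries lie below them at low marker levels.

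Levels of different genes were compared as CPM per kilobase of annotated exon. Among the 3 WT mice of the heterozygous round, Scn2b was highest at 76.4 ± 3.35 CPM per kb (SD, n = 3). Fgf12 (60.2 ± 3.58), Fgf13 (56.2 ± 3.30) and Scn3b (53.5 ± 7.36) followed, with overlapping libraries. Fgf11 (12.1 ± 1.75, lowest library 10.96) came next, then Fgf14 (10.1 ± 0.285, highest library 10.4), and the means of this pair lay little more than the SD of Fgf11 apart. Scn4b was lowest at 6.36 ± 2.76 CPM per kb. The 1b+/- libraries kept Scn2b first (77.8 ± 3.09, n = 4) and Scn4b last (5.70 ± 1.24). In 1b-/- the leading genes were Scn2b (63.7 ± 8.64, n = 2), Scn3b (63.4 ± 4.44) and Fgf13 (62.3 ± 1.40), whose libraries overlapped, with Fgf12 at 34.6 ± 8.46. In the WT pair of the homozygous round Scn4b was first, at 180 ± 97.4 CPM per kb. With the longest transcript as the length, Fgf13 took first place in 1b+/- (85.8), 1b-/- (100.2) and WT of the heterozygous round (90.4).

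The makeup of the FHF pool followed from these levels. Fgf12 supplied 25.8% and 32.7% of the summed FHF CPM per kb in the 1b-/- libraries and 40.7% to 51.4% in the other 9. Fgf13 supplied 50.9% and 55.4% in 1b-/- and 31.9% to 43.1% elsewhere. Fgf14 supplied 4.51% and 4.92% in 1b-/- and 6.68% to 10.3% elsewhere. For each of these genes the 1b-/- shares lay outside the range of the other libraries, though shares in one library sum to a whole and are not independent. Among the 3 beta subunit genes, Scn4b made up 53.7% and 69.4% in the WT pair of the homozygous round and 2.02% to 6.15% elsewhere.

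**Figure D4:**
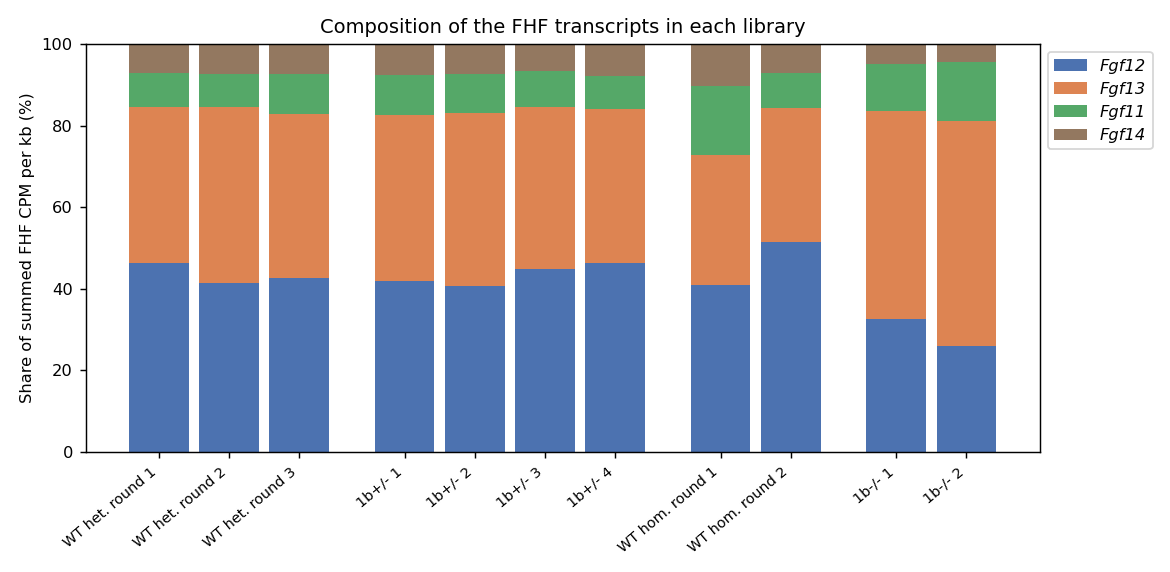
Share of each FHF gene in the summed FHF CPM per kilobase of exon, one bar per library. Both 1b-/- bars show less Fgf12 (25.8% and 32.7%) and more Fgf13 (50.9% and 55.4%) than the other 9 bars.

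Relative to the summed alpha subunit transcripts, the FHF sum was 1.26 to 1.43 in the heterozygous round, 1.35 and 1.65 in the WT pair and 1.69 and 1.87 in 1b-/-, on the per-kilobase scale. For Scn2b and Scn3b together the ratio to the alpha sum was 1.18 to 1.32, 1.21 and 1.57, and 1.81 and 2.05 in the same order. With Scn4b included, the beta subunit ratio was 5.13 and 2.61 in the WT pair against 2.14 and 1.84 in 1b-/-. The FHF ratio and the ratio without Scn4b were highest in 1b-/-, where the alpha sum itself was 65.3 and 66.4 CPM per kb, against 69.9 and 79.4 in the WT pair. That sum includes Scn1a, the targeted gene, which read 25.9 and 16.2 CPM in 1b-/- against 131 and 170 CPM in the WT pair. Ratios to an alpha sum without Scn1a were not computed. Whether either ratio would be highest in 1b-/- without Scn1a was therefore not tested.

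Over 11 libraries, with the mean of each round subtracted, the members' log2 CPM moved together to unequal degrees. Pearson's r was 0.95 between Scn4b and Fgf14, -0.91 between Scn4b and Fgf13, -0.87 between Scn4b and Scn3b and 0.84 between Scn3b and Fgf13. Fgf11 had r between -0.70 and 0.33 with the other members. These values are descriptions over libraries that share a round and, in the homozygous round, a WT pair that stood apart. Among 13158 genes, those most like Scn4b included Stard10 (r = 0.99) and Pde7b (0.99), at 0.81 and 0.89 within the 7 heterozygous-round libraries, and those most like Scn3b were Elmo2 (0.99), Ppp1r13b (0.98) and Dcakd (0.98). For Fgf14 they were Fez1 (0.99), Atl2 (0.99) and Ufl1 (0.98), for Fgf13 Fam19a1 (0.99), Mas1 (0.99) and Asic2 (0.99), and for Fgf12 Pcnp (0.98), Mapk9 (0.98) and Dtl (0.98). Lower values were reached for Scn2b, by A230072C01Rik (0.95), Acer2 (0.95) and Pdpr (0.95), and for Fgf11, by Lemd2 (0.93), P2ry6 (0.92) and Ranbp10 (0.91). Within the 7 heterozygous-round libraries r ran from 0.70 (Acer2 with Scn2b, and Dtl with Fgf12) to 0.99 (Elmo2 with Scn3b).

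The partners of these proteins were counted from 3 lists. Of 9 alpha subunit genes 7 were tested, and Scn1a alone passed in 1b-/-, where 3.58% of all genes passed. Scn9a (-1.35, edgeR adjusted p = 0.0584) and Scn3a (-0.57, adjusted p = 0.0852) did not pass there. In 1b+/- none passed, with Scn8a, the main alpha subunit of mature nodes and initial segments, at 0.15 (edgeR adjusted p = 0.376). Scn1a, Scn3a and Scn9a, with -0.25 and -0.48 per allele for the latter pair, passed as lower in the allele model. Of all genes, 11.1% passed in that model in either direction. The list's median log2 difference was -0.14 in 1b+/- and -0.09 in 1b-/-, against 0.00 for all genes in both.

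Of 19 genes of the axon initial segment and node, where FHFs and beta subunits gather, 1 passed in 1b-/- and none in 1b+/-. Of all genes, 3.58% passed in 1b-/- and 0% in 1b+/-. Kcnab2, an auxiliary subunit of potassium channels, rose in 1b-/- (1.05, SE 0.13, edgeR adjusted p = 0.0299). Its mean was 371 CPM in the WT pair and 764 CPM in 1b-/-. In the other round it was 582 CPM in WT and 632 CPM in 1b+/-. With 1 library left out, Kcnab2 was at 1.03 to 1.07 in 1b-/-. Those fits held 1 library in a group and cannot decide whether the call holds. Against the WT libraries of the other round it was at 0.39 (edgeR adjusted p = 0.00107). Ank3, which encodes the ankyrin that anchors sodium channels at the initial segment, was at 0.20 in 1b+/- (adjusted p = 0.268) and -0.49 in 1b-/- (adjusted p = 0.0877). Nfasc (0.28, adjusted p = 0.297) and Kcna1 (0.17, adjusted p = 0.367) were the next smallest p in 1b+/-, and Vcan (-0.70, adjusted p = 0.0833) in 1b-/-. The list's median was 0.05 in 1b+/- and -0.04 in 1b-/-.

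Of 13 genes that process beta subunits or bind FHFs, 0 passed in either genotype against its own WT. Mapk8ip2, a scaffold protein that binds FHFs, was at 0.70 in 1b-/- (edgeR adjusted p = 0.0614), Calm3, which encodes calmodulin, at 0.78 (adjusted p = 0.0774) and Psen2, a component of the gamma-secretase that cleaves beta subunits, at 0.81 (adjusted p = 0.0789). In 1b+/- genes with the smallest p included Ptprz1 (-0.10, edgeR adjusted p = 0.520) and Mapk8ip2 (-0.04, adjusted p = 0.715). In the allele model Calm3 (0.27, adjusted p = 0.0252) and Mapk8ip2 (0.23, adjusted p = 0.0435) passed as higher, where 11.1% of all genes passed in either direction. The list's median was -0.01 in 1b+/- and -0.03 in 1b-/-.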

How the data were processed

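Hippocampal RNA of 11 mice was sequenced by the study as stranded mRNA libraries in 2 rounds, single-end for 1b-/- and paired-end for 1b+/-. Per the labels and methods, STAR 2.7.2 (genome build mm9) and featureCounts were the tools the authors used before they deposited raw gene counts, with 20667122 to 36145161 counts per library. Columns were matched to samples by name. Genes reaching 1 CPM in any 1 library were tested with edgeR 4.0.16 (R 4.3.3) by the quasi-likelihood test with TMM factors. Genotype was the only variable, as in the study. The study's edgeR model used tagwise dispersions, and the study reported more genes passing in both genotypes and Scn1a significantly lower in 1b+/-. A Benjamini-Hochberg adjusted p below 0.05 was called. Standard errors are the fold change divided by the root of F. CPM in the text are scaled over all 11 libraries; CPM per kb, and shares and ratios made from them, use factors within a round. The alternatives used DESeq2 1.42.0, edgeR's likelihood ratio test, other factors, no filter, sex and leaving out libraries. FHF coding sequences were aligned with MAFFT 7.526. Scripts were tested on simulated data. The members and lists were chosen with earlier results of these data known. All 7 members are named. From the pathway lists, genes with an adjusted p below 0.05 in a comparison, otherwise the 3 with the smallest p, were named; from marker lists, sums and at most 2 genes (C1ql2, Prox1, Drd1a and Tac1 here); and for each member the 3 most correlated genes among those with average log2 CPM of at least 1. A few genes that these rules name are not reported here. Sums of all 12 marker lists are given in the report or among the closing observations. The share of ribosomal Rn45s was 2.38% to 4.45% for heterozygous-round libraries, against 0.0718% to 0.145% for the others.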

Additional observations from a re-analysis of the deposited data

Results flagged for a closer look

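The effect in 1b-/- differed from that in 1b+/- for 4 of 7 members by edgeR's test of the difference itself: Scn3b (1.02), Scn4b (-5.28), Fgf13 (0.83) and Fgf14 (-0.75), all as log2 differences of the 1b-/- minus the 1b+/- effect. The rounds differ in read type and in their WT libraries, so this difference cannot be told apart from the rounds.

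The same test passed for 27.3% of all genes and for 3 of 7 alpha subunit genes: Scn1a (-2.36), Scn3a (-0.44) and Scn9a (-1.35). It passed for 7 of 19 genes of the axon initial segment and node, which included Ank3 (-0.70), Cntn2 (-0.88), Kcna1 (-0.58), Kcna2 (-0.76), Kcnab2 (0.92) and Vcan (-0.82). Of the genes that process beta subunits or bind FHFs it passed for 5 of 13: Calm3 (0.75), Camk2a (0.78), Fyn (0.32), Mapk8ip2 (0.74) and Psen2 (0.82).

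Within the 4 1b+/- libraries, the summed basal forebrain cholinergic markers had 1 library far from the others, with a gap that was 0.901 of the range, and so had the astrocyte markers, at 0.847. No member was marked this way in that group, and chance marks about 1 in 20 groups.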

How the results depend on the processing

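No paired analysis was possible because the labels give no replicate numbers shared between groups. Genes called in 1b+/- numbered 191 with the likelihood ratio test, 245 with DESeq2 and 44 with no filter, against 0, and 0 to 421 with 1 library left out (421 without WT library 1), with 0 members in each. In 1b-/- the counts were 1829, 2144 and 1029, with 5537 in a fit of all 11 libraries and 7773 against the WT libraries of the heterozygous round, against 531, and 0 to 693 with 1 library left out. Members called in 1b-/- were 4 with the likelihood ratio test, DESeq2 and the fit of all 11 libraries, adding Fgf13 and Fgf14. Over 10 alternative settings Fgf14 passed in 4 and Fgf13 in 3. Leaving out 1 library left 1 in a group, so those fits cannot decide whether a member's call holds. Per allele, DESeq2 called 2900 genes and the fit without the WT pair 5178, against 1648, with 205 to 2320 genes and 0 to 3 members when 1 library was left out. For the difference of effects these were 2867 to 4983 genes and 4 to 5 members. Directions turned only where no call was made: Fgf11 in 1b+/- was 0.0402 with sex as a covariate and, with 1 library left out, -0.0645 to 0.119; in 1b+/- the other ranges were -0.0337 to 0.164 for Scn3b, -0.479 to 0.0735 for Scn4b, -0.00359 to 0.0526 for Scn2b and -0.0595 to 0.00150 for Fgf14. Fgf11 ranged from -0.0934 to 0.411 in 1b-/-, -0.0351 to 0.117 per allele and -0.103 to 0.399 for the difference. With the longest transcript as length, Fgf13 was 85.8, 100.2, 90.4 and 59.1 CPM per kb and Fgf14 11.4, 6.44, 11.7 and 11.1 CPM per kb in 1b+/-, 1b-/- and WT of the heterozygous and homozygous rounds. At 2 libraries a group, the common coefficient of variation between libraries was 22.9%, against 9.13% in the heterozygous round.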

Other observations

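Other cell type sums also set the WT pair of the homozygous round apart, in CPM over all 11 libraries. CA1 pyramidal markers summed to 330 and 331 CPM there and to 570 to 911 CPM elsewhere, and CA3 markers to 167 and 170 against 225 to 350 CPM. GABAergic interneuron markers were higher there, at 1192 and 1432 against 800.4 to 1021 CPM, as were those of oligodendrocytes (16044 and 22111 against 6100 to 13126 CPM) and microglia (422 and 442 against 233 to 376 CPM). Neocortical markers were 357 and 519 CPM there and 178 to 343 CPM elsewhere. Not every gene followed its sum. Against the WT pair, 1b-/- was higher for 5 of 6 CA3 genes and lower for 1. For the 8 GABAergic genes it was lower for 6 and higher for 2, and for the 6 neocortical genes lower for 5 and higher for 1.

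Other sums varied within groups. Thalamic markers reached 621 CPM in one WT library and 454 CPM in one 1b+/- library of the heterozygous round, with a lowest value of 102 CPM over all libraries. Choroid plexus markers ranged from 56.9 to 13070 CPM within the 1b-/- pair. Astrocyte markers were 5960 to 7210 CPM in the heterozygous round and 3958 to 4775 CPM in the homozygous round.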
